A study of Homo sapiens with 34 samples.

Results

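The genes for 10 proteins of the neutrophil azurophil granule were followed as cells of H1, an established line of human embryonic stem cells, turned into blood. They were MPO, ELANE, AZU1, PRTN3, CTSG, LYZ, DEFA3, DEFA4, BPI and SRGN, taken by name as 10 of the 20255 genes in the expression table. All 10 passed the filter on low values and were tested. H1 cells were first formed into embryoid bodies (EBs) and given BMP4 and VEGF, after which VEGF was the sole growth factor and no blood cytokine was added. RNA was sequenced in bulk from 34 samples of 12 populations. These were undifferentiated H1 cells (1 sample), EBs on day 0, unsorted cells on days 2 and 4, and the CD43+ and CD43- fractions of days 6, 9, 12 and 16, with 3 replicates for each of the 11 differentiating populations. On day 16 the cells were sorted on both CD43 and CD45, so that the day 16 CD43+ and CD43- cells named here were also CD45+ and CD45- by their labels. CD43, encoded by SPN, is a membrane protein of blood cells, and CD45, encoded by PTPRC, is the pan-leukocyte phosphatase. All populations came from 1 cell line.

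Azurophil granules are the first granules that a developing neutrophil makes, at the promyelocyte stage, and their proteins are synthesised in that stage and then stored. The granule holds a peroxidase, a family of serine proteases made as inactive precursors, and proteins that damage bacterial walls and membranes, packed on a proteoglycan core. Monocyte precursors make several of the same proteins, and lysozyme and serglycin are made by many other blood cells, so that no gene of the group is a marker of neutrophils alone.

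The deposited values were tag counts that the study's authors had normalized for GC content and then made equal in distribution across samples. Each sample therefore had the same sum, 17856940, the same median, 197, and the same highest value, 90700, which 10 genes held in every sample. The sequencing depth behind a value was thus unknown, and the spread between replicates was the only error available. A gene at 90700 could not be seen to rise further, and this applied to 14 of the 340 values of the group (6 of MPO, 6 of LYZ and 2 of SRGN). The values were not given per length, so levels are compared between samples and not between genes. Fold changes are differences of log2(value + 1), which understate changes of low genes, each followed by its standard error. That error rests on 1 spread per gene shared by all 11 populations of the fit. It therefore does not follow the spread of the groups compared. A gene was called where its adjusted p was below 0.05 and its fold change above 4.

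RefSeq promoter sequences were at hand for 3 of the 10 genes, and they are shown because AZU1 and PRTN3 lie side by side and rose in the same populations as CTSG, which lies on another chromosome. Each is the 250 bases before the start that RefSeq gives the gene on GRCh38.p14, which need not be the start of the interval in the expression table. The AZU1 window lies inside the interval given for AZU1 below, and the PRTN3 and CTSG windows overlap theirs at one end. They are written 5′ to 3′ on the strand of the gene. Capitals mark matches on either strand to GAGGAA (the core bound by PU.1), AACNG (MYB), TTGCNNAA (C/EBP factors) and TATAA. A search for TGTGGT (RUNX factors) gave no match in these windows. AZU1 is at chr19:827587-827836 (plus strand), PRTN3 at chr19:840749-840998 (plus strand) and CTSG at chr14:24576251-24576500 (minus strand).
AZU1: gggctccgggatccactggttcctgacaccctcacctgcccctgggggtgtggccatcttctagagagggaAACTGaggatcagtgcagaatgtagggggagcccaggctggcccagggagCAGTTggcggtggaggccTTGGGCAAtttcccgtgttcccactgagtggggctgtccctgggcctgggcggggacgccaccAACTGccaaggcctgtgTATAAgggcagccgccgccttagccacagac
PRTN3: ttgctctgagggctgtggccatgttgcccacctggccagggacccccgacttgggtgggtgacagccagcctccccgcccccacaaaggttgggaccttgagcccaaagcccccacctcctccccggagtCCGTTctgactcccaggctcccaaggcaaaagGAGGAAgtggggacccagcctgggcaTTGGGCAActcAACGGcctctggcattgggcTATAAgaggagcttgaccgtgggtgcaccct
CTSG: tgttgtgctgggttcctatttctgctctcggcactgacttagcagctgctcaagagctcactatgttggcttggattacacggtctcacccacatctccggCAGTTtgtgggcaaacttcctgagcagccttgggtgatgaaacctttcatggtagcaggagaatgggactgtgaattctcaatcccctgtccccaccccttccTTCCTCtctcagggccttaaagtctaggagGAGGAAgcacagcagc
AZU1 and PRTN3 shared the placing of TATAA, which began 31 bases before the RefSeq start in both, and both held 1 C/EBP match with the same 8 letters, 111 bases before the start in AZU1 and 62 in PRTN3. GAGGAA was found at 1 place in PRTN3 and at 2 in CTSG, one on each strand. Of 35116 promoters of the same length, 23.6% held GAGGAA, 70.6% AACNG, 9.05% TTGCNNAA, 11% TGTGGT and 18.9% TATAA. The matches describe the letters only.

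**Figure D1:**
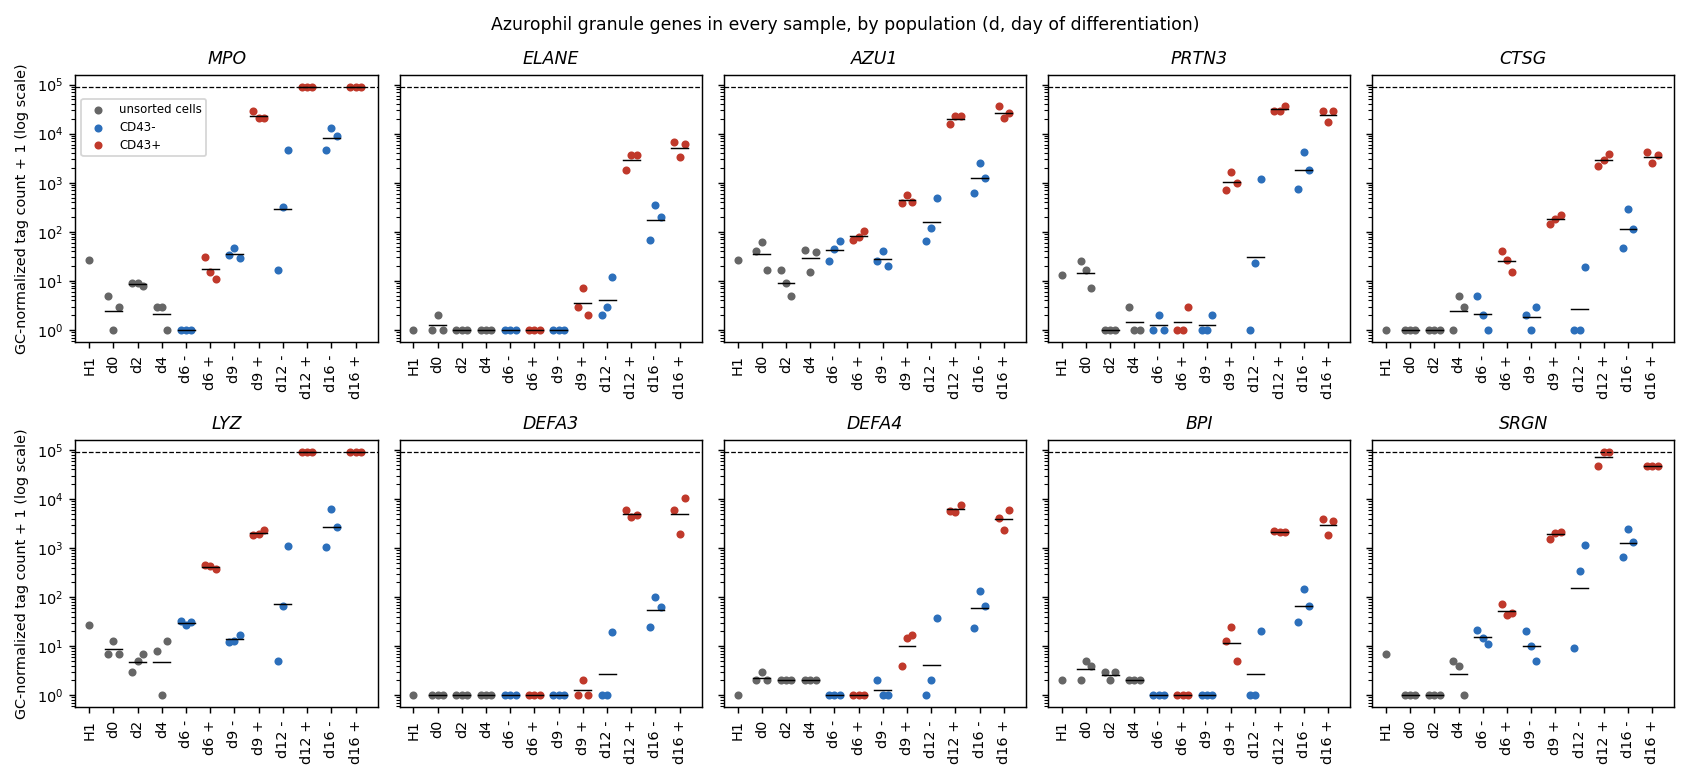
Normalized tag count plus 1 (log axis) of each azurophil granule gene in every sample of the 12 populations, from undifferentiated H1 cells to day 16, with CD43- samples in blue and CD43+ samples in red. Bars are means of log2(value + 1), and the dashed line is the highest value of the table, 90700. In all 10 panels the CD43+ samples of days 12 and 16 lie above every other sample.

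The 10 genes had the same 2 highest populations, the CD43+ cells of day 12 and of day 16, whose values overlapped for every gene and lay above those of all other populations. The next population differed. It was the day 9 CD43+ cells for MPO, CTSG and SRGN, and the day 16 CD43- cells for the other 7 genes. The day 9 CD43+ and day 16 CD43- values did not overlap for MPO, which was higher in the former, nor for ELANE, AZU1, DEFA3, DEFA4 and BPI, which were higher in the latter. They overlapped for PRTN3, CTSG, LYZ and SRGN. Because the samples are bulk RNA, fewer cells that make a protein and less of its RNA per cell cannot be told apart.

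MPO encodes myeloperoxidase, which makes hypochlorous acid from hydrogen peroxide and chloride. The gene lies on the minus strand of chromosome 17 (hg38, 58269856 to 58280935). It was at 26 in undifferentiated H1 cells and between 0 and 8 in the samples of days 0, 2 and 4. In day 6 CD43+ cells it was at 30, 14 and 10 and in day 6 CD43- cells it was listed at 0 in all 3 replicates, and it was called higher in the CD43+ cells (adjusted p = 0.00128). By day 9 the CD43+ values were 29015, 20412 and 20412, against 32, 46 and 28 in CD43- cells. The 2 groups were far apart, with a log2 fold change of 9.33 ± 1.0 (adjusted p = 7.19e-09). All 6 CD43+ samples of days 12 and 16 were at the highest value of the table, while the CD43- samples were at 16, 324 and 4608 on day 12 and at 4657, 12840 and 8970 on day 16. The differences, 8.27 ± 1.0 (adjusted p = 4.48e-08) and 3.48 ± 1.0 (adjusted p = 0.00343), could therefore be larger than measured. Under the other settings tried the adjusted p reached 0.022 on day 12 and 0.0265 on day 16. The rise within CD43+ cells from day 6 to day 9, 10.38 ± 1.0 on the log2 scale (adjusted p = 1.02e-08), was the highest fold change of all 19788 genes tested in that comparison at the pseudocount of 1. At a pseudocount of 0.1 PRTN3 exceeded it, with 11.90. From day 9 to day 12 the estimate was 1.98 ± 1.0 (adjusted p = 0.0955), limited by the ceiling of the table.

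ELANE, PRTN3 and AZU1, genes of the serine protease family, lie in 1 cluster on the plus strand of chromosome 19. AZU1 (825097 to 832018) is followed by PRTN3 (840960 to 848175) after 8941 bases and then by ELANE (851014 to 856247) after 2838 bases. ELANE encodes neutrophil elastase. It was at 0 or 1 in every sample up to day 6, in both fractions, and at 0 in the 3 CD43- samples of day 9. The day 9 CD43+ values were 2, 6 and 1, a difference with an adjusted p of 0.0058 that stayed below 4-fold. On day 12 it was at 1856, 3605 and 3605 in CD43+ cells and at 1, 2 and 11 in CD43- cells. The day 12 groups differed by 9.44 ± 0.55 on the log2 scale (adjusted p = 3.25e-14). On day 16 the CD43+ values were 6912, 3298 and 6242 and the CD43- values 68, 354 and 200, a difference of 4.94 ± 0.55 (adjusted p = 1.11e-08). ELANE stood out in the cluster for its late start.

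PRTN3 encodes proteinase 3, a protease closely related to elastase. It was at 12 in undifferentiated H1 cells and at 24, 16 and 6 on day 0. It was listed at 0 in all 3 samples of day 2, where it was the 1 gene of the 10 called lower than on day 0 (3.48% of all genes), a call lost without day 0 replicate 1 or 2. From day 2 to day 4 none of the 10 was called (9.50% of all genes in either direction). PRTN3 lay between 0 and 2 in the samples of day 4, in both fractions of day 6 and in the CD43- cells of day 9. The day 9 CD43+ values were 697, 1677 and 1010, all far above the CD43- values, with a log2 fold change of 9.71 ± 1.27 (adjusted p = 1.97e-07). On day 12 it was at 29015, 29015 and 37178 in CD43+ cells, whereas the CD43- replicates were at 0, 22 and 1172. The CD43- replicates of day 12 were far apart, and all lay below the CD43+ replicates. The difference was 10.04 ± 1.27 (adjusted p = 8.65e-08). The log2 values of these CD43- replicates had a standard deviation of 5.11, and under the other settings tried the adjusted p reached 0.0222. On day 16 the CD43+ values of 29015, 17356 and 29015 stood above 760, 4152 and 1824 in CD43- cells, by 3.77 ± 1.27 (adjusted p = 0.0105). This call was lost under 2 of 18 other settings (adjusted p up to 0.0856).

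AZU1 encodes azurocidin, a family member without protease activity that kills bacteria and attracts monocytes. Unlike PRTN3 and ELANE, it was above 0 in every sample, between 4 and 60 up to day 4. The day 6 values were 66, 76 and 101 in CD43+ cells and 24, 44 and 65 in CD43- cells. These groups did not overlap, but the difference of 0.94 ± 0.60 did not pass the test (adjusted p = 0.197). On day 9 AZU1 was at 390, 552 and 400 in CD43+ cells and at 25, 40 and 19 in CD43- cells, a log2 difference of 4.0 ± 0.60 (adjusted p = 1.66e-06). On day 12 the CD43+ values were 15842, 22812 and 22812 and the CD43- values 63, 116 and 495. The difference was then 7.03 ± 0.60 (adjusted p = 5.76e-11). On day 16 AZU1 was at 37166, 20394 and 25836 in CD43+ cells against 608, 2561 and 1252 in CD43- cells (4.43 ± 0.60, adjusted p = 2.75e-07).

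CTSG encodes cathepsin G, the chymotrypsin-like protease of the granule, on the minus strand of chromosome 14 (24573522 to 24576260). It was listed at 0 in all samples up to day 2 and at 0, 4 and 2 on day 4. In day 6 CD43+ cells it was at 40, 26 and 14, above 4, 1 and 0 in CD43- cells, and this was among the earliest differences of the group (3.57 ± 0.80, adjusted p = 0.000584). It then rose in steps in CD43+ cells, to 146, 178 and 224 on day 9 and to 2185, 2900 and 3877 on day 12. The day 9 CD43- samples were at 1, 0 and 2 and the day 12 CD43- samples at 0, 0 and 18. The difference reached 10.09 ± 0.80 on day 12 (adjusted p = 1.68e-11). On day 16 CTSG was at 4269, 2534 and 3701 in CD43+ cells and 46, 286 and 114 in CD43- cells, which differed by 4.89 ± 0.80 (adjusted p = 6.11e-06).

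LYZ encodes lysozyme, which cleaves the peptidoglycan of bacterial walls, and lies on the plus strand of chromosome 12 (69348341 to 69354234). It had the highest day 6 CD43+ values of the group relative to its own earlier ones, at 448, 436 and 365, against 32, 26 and 30 in CD43- cells and 7, 0 and 12 on day 4. The CD43 difference on day 6 was 3.78 ± 1.04 (adjusted p = 0.00355), and the rise from day 4 to the CD43+ cells was 6.47 ± 1.04 (adjusted p = 9.6e-06). LYZ was at 1851, 1960 and 2340 in the day 9 CD43+ cells and at 11, 12 and 16 in the CD43- cells, a difference of 7.20 ± 1.04 (adjusted p = 9.67e-07). All 6 CD43+ samples of days 12 and 16 were at 90700. The CD43- values were 4, 64 and 1089 on day 12 and 1066, 6253 and 2704 on day 16. Since the CD43+ values were at the ceiling, the differences of 10.32 ± 1.04 on day 12 and 5.11 ± 1.04 on day 16 could be larger than measured. RP11-1143G9.4 overlaps LYZ on the opposite strand, and since counting by strand is not given in the sources used here, reads of the 2 genes may not be separated. That gene was at 3396, 16 and 801 in the day 12 CD43+ cells and at 12, 14 and 20 in the day 16 CD43+ cells.

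DEFA3 and DEFA4 encode alpha-defensins, small cationic peptides that permeabilise microbial membranes, and lie on the minus strand of chromosome 8 (7015869 to 7018301 and 6935822 to 6938338). DEFA3 was listed at 0 in every sample before day 9 and in the day 9 CD43- cells, and the day 9 CD43+ cells were at 0, 1 and 0. It was then at 6002, 4374 and 4779 in day 12 CD43+ cells and at 0, 0 and 18 in CD43- cells. The day 12 CD43 difference was 10.87 ± 0.71 (adjusted p = 2.87e-13). Within CD43+ cells, the rise from day 9 to day 12 of 11.96 ± 0.71 (adjusted p = 3.28e-13) was the highest fold change of all genes tested in that comparison at the pseudocount of 1. On day 16 the CD43+ values spread from 1948 to 10430, with the other replicate at 6002, above 24, 101 and 63 in CD43- cells (6.5 ± 0.71, adjusted p = 6.82e-09). DEFA3 shares nearly all of its sequence with DEFA1 and DEFA1B, so how reads were divided among them is uncertain. DEFA1 was at 4112, 2788 and 3682 and DEFA1B at 4326, 3080 and 3717 in the same day 12 CD43+ samples.

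DEFA4 has its own sequence within that family. It was at 3, 14 and 16 in the day 9 CD43+ cells and at 1, 0 and 0 in the CD43- cells (3.00 ± 0.79, adjusted p = 0.00169). In CD43+ cells it was at 5700, 5478 and 7626 on day 12 and at 4074, 2358 and 6002 on day 16. The corresponding CD43- values were 0, 1 and 36 and then 22, 132 and 66. The CD43+ samples lay above the CD43- samples on both days, by 10.53 ± 0.79 (adjusted p = 5.37e-12) and 6.03 ± 0.79 (adjusted p = 1.8e-07).

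BPI encodes the bactericidal/permeability-increasing protein, which binds lipopolysaccharide, on the plus strand of chromosome 20. The table placed it from 38260149 to 38337505, whereas GENCODE release 29 starts it at 38304123, and the longer interval overlaps KIAA1755 and CTD-2308N23.2. These were low in the day 12 CD43+ cells, at 12, 11 and 22 and at 52, 65 and 74. BPI itself was at 12, 24 and 4 in the day 9 CD43+ cells and at 0 in all 3 CD43- samples, and was called higher there (adjusted p = 0.000131). In CD43+ cells it reached 2230, 2088 and 2139 on day 12, the tightest replicates of the antimicrobial genes below the ceiling, and 3984, 1818 and 3543 on day 16. The CD43- values were 0, 0 and 19 on day 12 and 30, 144 and 64 on day 16. The difference was 9.63 ± 0.73 on day 12 (adjusted p = 6.89e-12) and 5.47 ± 0.73 on day 16 (adjusted p = 2.56e-07).

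SRGN encodes serglycin, the proteoglycan core on which the granule proteins are packed, on the plus strand of chromosome 10 (69088106 to 69104811). It was at 71, 42 and 46 in day 6 CD43+ cells and at 20, 14 and 10 in CD43- cells. The groups did not overlap but the difference of 1.80 ± 0.94 was not called (adjusted p = 0.116). Its CD43+ values were 1550, 2054 and 2133 on day 9, against 19, 9 and 4 in CD43- cells, and it was called then (7.57 ± 0.94, adjusted p = 9.3e-08). On day 12 the CD43+ values were 48025, 90700 and 90700 and on day 16 all 3 were 48025. The CD43- values were 8, 346 and 1140 on day 12 and 643, 2438 and 1333 on day 16, and SRGN was higher in CD43+ cells by 8.91 ± 0.94 (adjusted p = 3.83e-09) and 5.23 ± 0.94 (adjusted p = 2.18e-05). Identical values in several samples follow from the common distribution that the normalization gives to all samples.

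**Figure D2:**
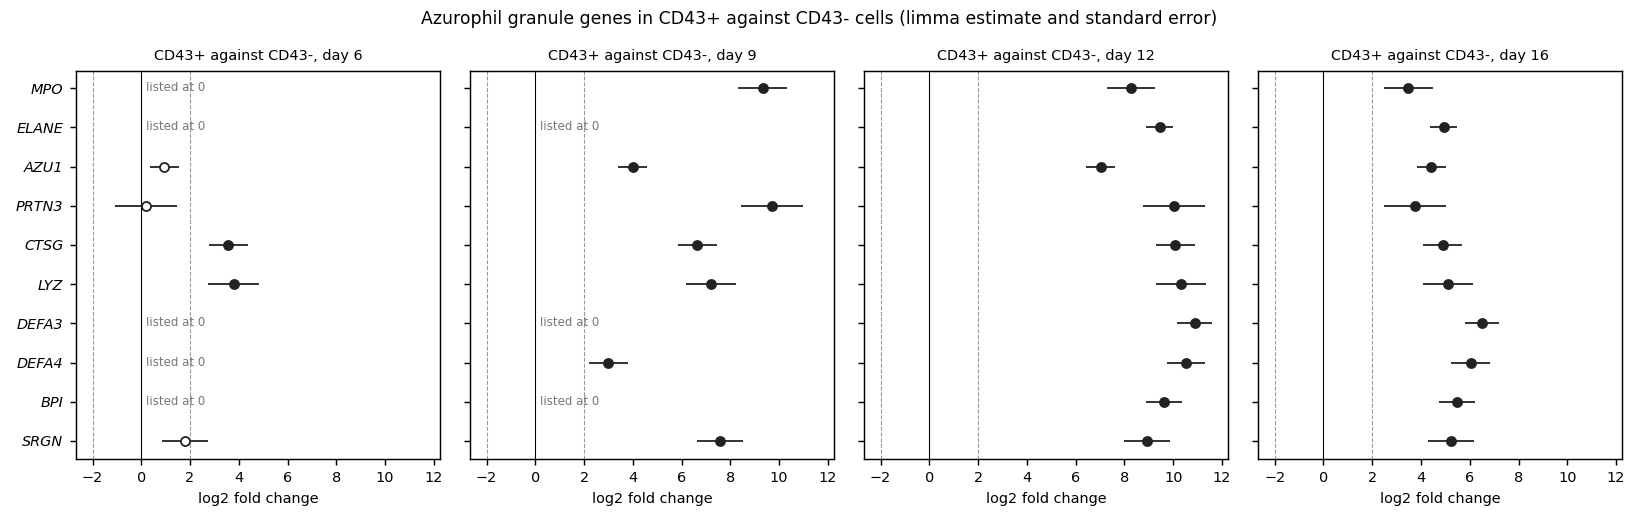
Log2 fold change of CD43+ against CD43- cells on days 6, 9, 12 and 16 for the 10 azurophil granule genes, with standard errors as bars. Filled points were called, open points were not, dashed lines mark 4-fold, and genes at 0 in every sample of either population are written as listed at 0. All 10 points lie between 7.03 and 10.87 on day 12 and between 3.48 and 6.5 on day 16.

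Set side by side, the CD43 comparison addressed when the granule genes separated the blood fraction from its CD43- neighbours. On day 6, 3 of the 10 genes (MPO, CTSG and LYZ) were called higher in CD43+ cells, where 4.68% of all genes tested were called higher. At a pseudocount of 10 the count was 1, LYZ, since the calls of MPO and CTSG rest on values of 10 to 40 against values near 0. On day 9, 8 of 10 were called higher, against 8.65% of all genes, and only ELANE and DEFA3 were not called. The calls of DEFA4 and BPI rest on values of at most 24 against values of 0 or 1. Each was lost under 1 of 18 other settings, and the count went down to 6. On day 12 all 10 were called higher, against 11.8% of all genes, with a median log2 fold change of 9.83 (all genes, 0.22). On day 16 all 10 were again called, against 12.2% of all genes, with a median of 5.03 (all genes, 0.14). SPN itself was at 8780, 6791 and 5979 in day 6 CD43+ cells and at 28, 19 and 49 in CD43- cells. Since cells were sorted on its protein, this shows only that SPN RNA followed the sort before most granule genes appeared.

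**Figure D3:**
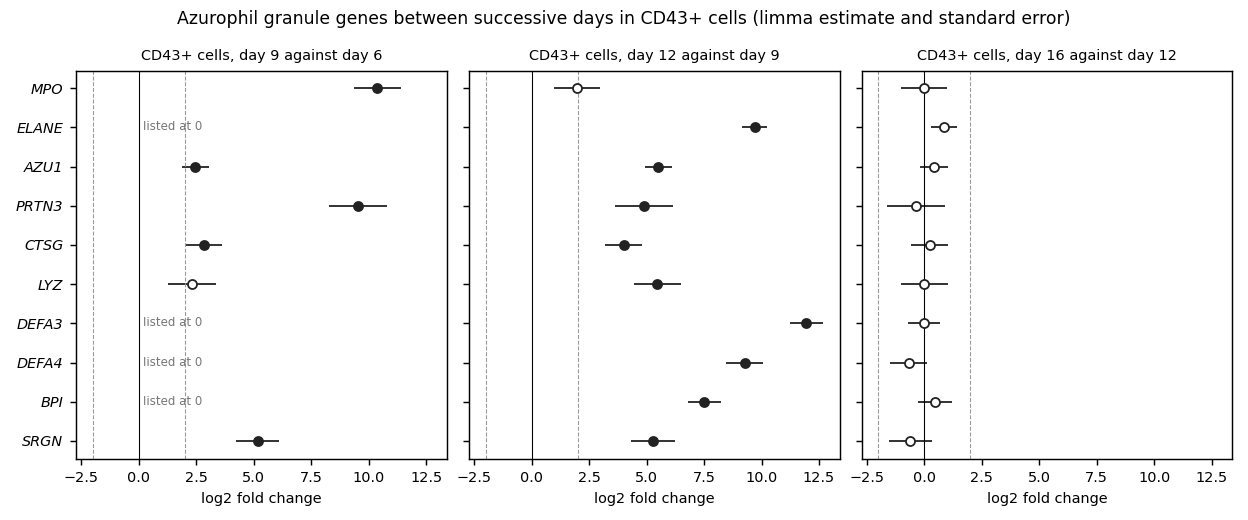
Log2 fold change within CD43+ cells from day 6 to 9, 9 to 12 and 12 to 16 for the 10 azurophil granule genes, with standard errors as bars, filled where called. Genes at 0 in every sample of a population are written as listed at 0. The points of the last step all lie between -0.68 and 0.85.

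Within CD43+ cells, 4 genes (MPO, CTSG, LYZ and SRGN) were called higher on day 6 than in the unsorted cells of day 4, against 6.80% of all genes tested. From day 6 to day 9, 7 genes rose (3.56% of all genes), namely MPO, PRTN3, AZU1, CTSG, DEFA4, BPI and SRGN. LYZ had an estimate of 2.30 ± 1.04 (adjusted p = 0.0999) in this step. From day 9 to day 12, 9 genes rose (8.45% of all genes), all but MPO. The rises of this second step were 9.70 ± 0.55 for ELANE, 9.27 ± 0.79 for DEFA4 and 7.52 ± 0.73 for BPI, and 5.51 ± 0.60 for AZU1, 4.90 ± 1.27 for PRTN3 and 4.01 ± 0.80 for CTSG. The steps share the day 9 samples. SRGN rose by 5.17 ± 0.94 in the first step and by 5.28 ± 0.94 in the second. The CTSG call of the first step was lost under some of the other settings tried (adjusted p up to 0.168). Those of DEFA4 and BPI in that step were each lost under 1 of 18. From day 12 to day 16, none of the 10 was called by limma, none had an unadjusted p below 0.05, and the estimates ran from -0.68 ± 0.79 for DEFA4 to 0.85 ± 0.55 for ELANE. In this step 3.79% of all genes were called higher and 5.26% lower. MPO and LYZ were at the ceiling on both days.

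**Figure D4:**
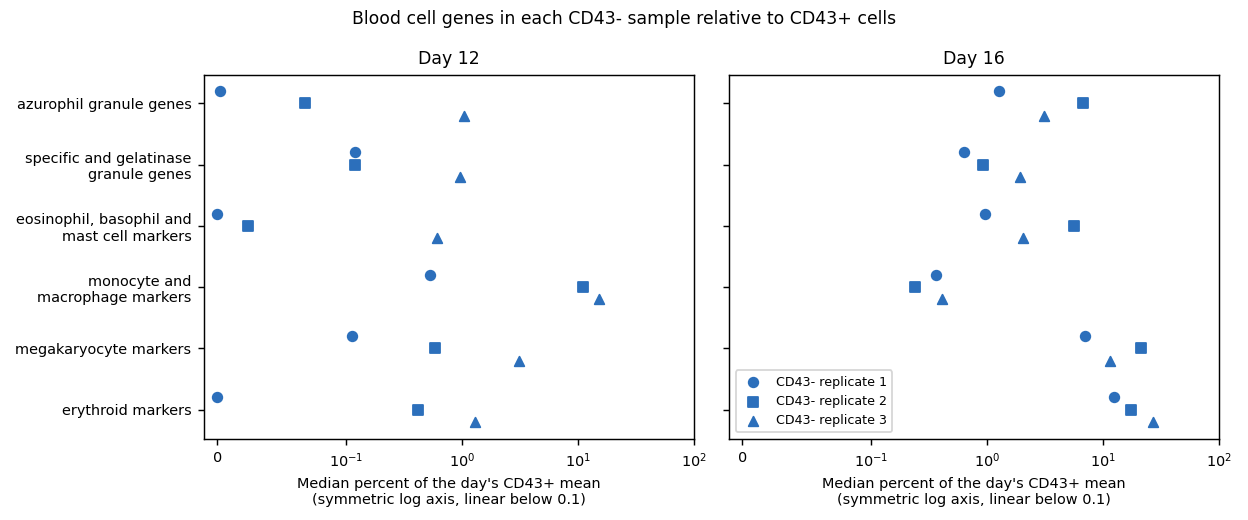
Level in each CD43- sample of days 12 and 16 as a percentage of the CD43+ mean of the same day, shown as the median over the genes of each list with a CD43+ mean of at least 100 (symmetric log axis, linear below 0.1). Replicate 3 is the highest for the azurophil granule genes on day 12, at 1.04%, and replicate 2 on day 16, at 6.67%.

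In CD43- cells the genes moved later and less evenly. LYZ and SRGN were called higher on day 6 than on day 4 (4.94% of all genes), a count that fell to 0 without replicate 1 or replicate 2 of the day 6 CD43- cells and to 1 without replicate 3 of these or replicate 2 or 3 of day 4. MPO was called on day 9 against day 6 (1.10%), where it was at 0 in the earlier samples. From day 9 to day 12, MPO, ELANE, AZU1, PRTN3 and SRGN were called higher (4.52%), and from day 12 to day 16 all 10 were (4.46%). The day 12 replicates were unlike each other. Replicate 3 had the highest value for all 10 genes and replicate 1 was the lowest, or shared the lowest value, for all 10. Without replicate 3 the count from day 9 to day 12 fell to 1, without replicate 1 it rose to 9 and without replicate 2 to 8, and with only the 2 populations in the fit it was 0. On day 16, replicate 2 was the highest and replicate 1 the lowest for all 10 genes. The day 16 values lay above all day 12 values for MPO, ELANE, AZU1, CTSG, DEFA3 and BPI, and overlapped them for PRTN3, LYZ, DEFA4 and SRGN. Between the same days, the CD43 difference was called smaller for 9 of 10 genes by a test of the change itself (2.17% of all genes). Cells were sorted on CD43 alone on day 12 and on CD43 and CD45 on day 16. In any step between these days, the day and the way of sorting cannot be told apart. MPO and LYZ are among the 9 but were at the ceiling in every CD43+ sample of both days, so that their change is that of the CD43- cells alone and a further rise in CD43+ cells could not be measured. By contrast, the difference was called larger for 5 genes from day 6 to 9 (3.21%) and for 6 from day 9 to 12 (4.61%). Of the latter 6, CTSG was lost under 8 of 24 other settings. With only the day 12 and day 16 CD43- cells in the fit, 3 genes (ELANE, CTSG and BPI) stayed called from day 12 to day 16, and with the replicate number as a block in that fit 1 did. The change of the CD43 difference was then called for ELANE alone.

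Other blood genes were present in the same CD43- samples. As a share of the CD43+ mean, the 10 azurophil granule genes had medians of 0.002%, 0.068% and 1.04% in replicates 1, 2 and 3 of day 12 and of 1.28%, 6.67% and 3.12% on day 16. CD43+ values of MPO and LYZ, and of SRGN on day 12, were at the ceiling, so their shares could be smaller. Medians cover genes with a CD43+ mean of at least 100, on day 16 8 erythroid and 10 specific and gelatinase granule genes. The monocyte and macrophage markers were at 0.534%, 11% and 15.3% on day 12 but at 0.365%, 0.240% and 0.408% on day 16. Megakaryocyte markers were at 6.95%, 21.4% and 11.4% on day 16, with replicate 2 again the highest and replicate 1 the lowest for all 8. Erythroid markers were at 12.4%, 17.5% and 26.8% on day 16, with replicate 3 the highest for 6 of 10, and specific and gelatinase granule genes at 0.629%, 0.914% and 1.93%, with replicate 3 the highest for 7 of 15. The 12 macrophage markers summed to between 921 and 9630 in day 12 CD43- cells and to between 1816 and 2452 on day 16, and the 8 megakaryocyte markers to between 173 and 918 and then to between 4431 and 13773. None of these macrophage and megakaryocyte markers was at 0 in a day 16 CD43- sample. SPN was at 84, 328 and 122 in the day 16 CD43- cells and at 122, 120 and 235 on day 12, and PTPRC at 18, 42 and 22 and at 4, 197 and 371. The part of CD43+ cells or of their RNA in the CD43- values was not tested.

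The other 22 azurophil granule genes of the list, which include lysosomal enzymes made by most cells, covered a wider range. On day 12, 10 of 22 were called higher in CD43+ cells (11.8% of all genes) and 0 lower, with a median of 1.80. On day 16 these counts were the same (12.2% of all genes called higher), with a median of 1.59. PRSS57, a serine protease of the granule, was at 344, 370 and 294 in day 9 CD43+ cells and at 1213, 2520 and 2916 on day 12, and rose in both steps. CTSC encodes the peptidase that removes the propeptide of the serine proteases. It was present from the start, at 4662, 4615 and 4511 in day 6 CD43+ cells against 2736, 2535 and 1293 in CD43- cells, and was called higher from day 12 (3.26, adjusted p = 1.99e-10) with values of 22847, 13327 and 10844. CST7, a cystatin that inhibits CTSC, was at 6 in all 3 day 6 CD43+ samples, at 101, 101 and 86 on day 9 and at 2048, 3984 and 4077 on day 12. CTSC was thus well above 0 on day 6, when most of the proteases were near 0, and CST7 was called higher in both later steps. At the ends of the list, MPEG1, a pore-forming protein of phagocytes, had the largest difference on day 16 (7.54) and PTX3 the smallest (-0.16, not called), while ARSA, a lysosomal sulphatase, had the smallest on day 12 (0.31) and DEFA1B the largest (10.38).

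Of 10 entries for protease inhibitors, 3 were called higher and 2 lower on day 12, and again on day 16, with medians of 0.39 and 0.33. Of all genes, 11.8% and 12.2% were called higher on these days. SERPINB1, which inhibits elastase, proteinase 3 and cathepsin G inside the cell, was at 2242, 2092 and 2630 in day 9 CD43+ cells and 6688, 10073 and 10817 on day 12, and was called from day 9 on. CSTA, a cystatin that acts on cysteine proteases, had the largest difference on both days (9.16 and 6.19). The 2 entries called lower were both SERPINA3, a secreted inhibitor of cathepsin G, which the table holds under 2 identifiers.

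Specific and gelatinase granules are formed after azurophil granules. Of 15 genes listed 14 were tested. Called higher in CD43+ cells were 4 on day 9, 12 on day 12 and 13 on day 16, against 8.65%, 11.8% and 12.2% of all genes. None was called lower, and the medians were 1.22, 5.99 and 5.06. LTF, the iron-binding lactoferrin, was at 19, 14 and 22 in day 6 CD43+ cells, at 1014, 64 and 146 on day 12 and at 396, 134 and 1454 on day 16, so its replicates were much wider apart than those of the azurophil genes. CAMP, the cathelicidin precursor, was at 41, 4 and 4 on day 12 and at 12, 16 and 93 on day 16. LCN2, a siderophore-binding lipocalin, was already at 119, 50 and 60 on day 6 and was at 64, 180 and 99 on day 12. OLFM4 had the largest difference on both days (9.37 and 7.65), CRISP3 the smallest on day 12 (1.72) and the gelatinase MMP9 the smallest on day 16 (0.16, not called). The list summed to between 856 and 1660 in day 9 CD43+ cells and to between 10127 and 21351 on day 12.

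Among 14 genes of mature neutrophils, 12 were called with higher and 1 with lower values in the CD43+ fraction on day 12, and the numbers were the same on day 16, with medians of 5.41 and 5.74. The shares of all genes called higher were 11.8% and 12.2%. S100A8, a subunit of calprotectin, was at 15794 in all 3 day 12 CD43+ samples, and FPR1, a receptor for formyl peptides, was at 1896, 1368 and 3296 on day 16. The gene called lower was MME, an endopeptidase also made by stromal cells, at 128, 86 and 154 in CD43+ cells and at 20424, 14685 and 14016 in CD43- cells on day 12.

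Of 9 myeloid transcription factors, 4 were called in favour of CD43+ and 1 of CD43- cells on day 6, and 6, 6 and 7 in favour of CD43+ cells and 0 of CD43- cells on days 9, 12 and 16, with medians of 1.64, 3.63, 2.91 and 4.18. The shares of all genes called higher in CD43+ cells on the 4 days were 4.68%, 8.65%, 11.8% and 12.2%. SPI1, which encodes PU.1, was at 1553, 1247 and 1332 in day 6 CD43+ cells against 10, 8 and 5 in CD43- cells, and at 2095, 2194 and 2264 on day 9. GFI1, a repressor needed for neutrophil development, was at 3346, 3301 and 3047 on day 6 and at 888, 945 and 1110 on day 9 in CD43+ cells (-1.72, adjusted p = 0.00619, below 4-fold). CEBPE, required for the later granules, was at 9, 5 and 8 on day 6, at 99, 169 and 120 on day 9 and at 590, 604 and 680 on day 12. SPI1 and GFI1 were thus high in CD43+ cells on day 6, when 7 of the 10 granule genes were not yet called, and CEBPE rose from day 6 to day 9 and again to day 12 and had the largest difference of the list on day 12 (8.76). SPI1 had the largest on day 16 (5.93). CEBPD had the smallest difference on day 12 (-0.32, not called) and CBFB on day 16 (1.39, below 4-fold).

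The CD43+ cells also held markers of other blood cells. All 12 monocyte and macrophage markers were called higher in CD43+ than in CD43- cells on days 12 and 16 (11.8% and 12.2% of all genes). All 12 also rose from day 9 to day 12 in CD43+ cells (8.45% of all genes). There they summed to between 3752 and 4386 on day 9 and to between 35352 and 115109 on day 12. All 9 eosinophil, basophil and mast cell markers in the table were called higher on both days, and in CD43+ cells they summed to between 2372 and 5746 on day 9 and between 31095 and 64089 on day 12. All 8 megakaryocyte markers were called higher in CD43+ than in CD43- cells on both days, but none of them rose from day 9 to day 12 in CD43+ cells, where their median log2 change was -0.58 and their sum was between 28628 and 32867 and then between 9636 and 36475. Of 10 erythroid markers, 9 fell from day 9 to day 12 in CD43+ cells, where their sum went from between 192608 and 331365 to between 10183 and 27641. No marker of these 4 lists was at 0 in a day 12 CD43+ sample. The ends of these lists were MARCO (6.82) and MRC1 (3.25) among the macrophage markers on day 12 and CD163 (9.65) and CD68 (3.18) on day 16. Among eosinophil, basophil and mast cell markers they were PRG2 (11.03) and MS4A2 (2.61), then TPSAB1 (7.48) and MS4A2 (3.53). Among megakaryocyte markers they were PF4 (8.38) and GP6 (4.08), then PPBP (3.19) and ITGA2B (2.11), and among erythroid markers HBG2 (8.79) and EPOR (-1.26), then RHAG (4.47) and HBZ (-1.87). Of 8 endothelial and mesenchymal markers 7 were lower in CD43+ cells on both days, from POSTN (-6.68 and -7.42) to PECAM1 (-0.56 and -0.80, not called), and of 4 pluripotency markers 0 and 1 were, the latter SOX2 (-5.54, at 0 in CD43+ cells), with NANOG highest (0.65 and 0.92, not called). The shares of all genes called lower in these comparisons are not given here. The share of each cell type in the rise of the azurophil granule genes was not tested.

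Genes beside the 10 were less uniform. PRSS57 and CFD were the 2 of 10 listed genes around the ELANE cluster that were called higher on days 9, 12 and 16 (8.65%, 11.8% and 12.2% of all genes). CFD, complement factor D, begins 3395 bases after ELANE, and was at 1256, 2262 and 2033 in day 12 CD43+ cells against 20, 54 and 74 in CD43- cells. PLPPR3, 3119 bases before AZU1 on the opposite strand, was not called on any of the 4 days and was at 954, 1665 and 2155 in day 12 CD43+ cells and at 883, 878 and 647 in CD43- cells. LPO, lactoperoxidase, ends 1337 bases from MPO and was at 54, 36 and 63 in day 9 CD43+ cells but at 0 in the 3 CD43- samples. Next to CTSG, SDR39U1 was not called on any day, and STXBP6 was lower in CD43+ cells on days 9, 12 and 16, at 6, 2 and 8 against 756, 746 and 634 on day 12. In the MPO neighbourhood 4 of 7 listed genes were called higher on day 12 and 3 on day 16, with EPX highest (10.04 and 5.08) and RNF43 lowest (-0.36 and -1.17). TSPOAP1, 20292 bases from MPO, was called higher on days 9 and 12 (2.25 and 3.34). MISP and PALM had the lowest values around ELANE (-1.67 on day 12 and -1.57 on day 16, not called). Beside the others, KIF1BP, VPS26A, XKR5 and FAM66B were called on none of the 4 days, and RP11-1143G9.5 next to LYZ was called higher on days 12 and 16.

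Over the means of the 12 populations, the 45 pairs of azurophil granule genes had Pearson correlations between 0.80 and 0.99, with a median of 0.92. These are descriptions over 12 points that share the same CD43+ populations, and many genes of CD43+ cells have a like pattern. The genes closest to the joint mean of the 10 were S100A8 (0.99), PRG3, CST7, FCN1, EPX, RETN, RNASE3, MNDA, SH3BP2 and CLEC5A (0.98 for the last). By Spearman's rho 3 of these were again among the first 10. MPO was closest to BIN2 (0.97), PPBP and TNFRSF4, and PRTN3 to PPBP (0.98), CLC and P2RY8. ELANE was closest to DEFA3 (0.99), DEFA1 and S100A12, and DEFA3 to DEFA1 (1.0), DEFA1B and S100A12. CTSG was closest to PRG2 (0.99), CST7 and C19orf38, and LYZ to PRG2 (0.99), CTSG and SRGN. DEFA4 and BPI were closest to each other or to MNDA and SERPINB10 (0.99), AZU1 to SH3BP2 (0.99), CXorf38 and CST7, and SRGN to NLRP3 (0.98), LYZ and VDR.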

How the data were processed

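Bulk RNA was sequenced from 34 samples, and the paper describes the replicates as independent biological replicates. The authors deposited one table of GC-normalized tag counts, made with RSEM and EDASeq, rounded to whole numbers and treated here as a score, since they are not raw counts. The submitters' processing notes also name STAR 2.7, Bowtie2, bcl2fastq and hg38. No sample column was left unused (0), and the table holds no read depth.

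The GC percent of each gene was deposited beside the values and served for description only. Genes that reached a value of 10 in 3 or more samples entered the tests (19788, with 467 left out). limma 3.58.1 (R 4.3.3) was fitted with a trend to log2(value + 1) of 33 samples in 11 populations, and p-values were adjusted by Benjamini-Hochberg over all genes tested. The single undifferentiated H1 sample was left out of the fit. The fit was run on simulated data with the same means and spread in all populations, apart from genes changed by known folds. Those data did not imitate the unequal spreads between populations. Gene intervals came from the table and from GENCODE release 29, promoters from RefSeq GRCh38.p14. Same-numbered CD43+ and CD43- samples deviated together on day 6 (correlations 0.20, 0.11 and 0.20, numbers from the sample titles). The correlations were 0.02 to 0.08 on day 9, 0.04 to 0.11 on day 12 and -0.02 to 0.04 on day 16. The reported fit held no replicate block, so no reported test was paired. Adding the block did not change the count of members called in the CD43 comparison of day 6.

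The 10 genes and all lists were chosen with earlier results of these data known. Named were the 10 genes, the ends of each list on days 12 and 16, genes beside the 10, 10 genes with a role in granules, and the 3 most correlated genes of each. Alternatives tried were the pseudocount, filter, fold threshold, scaling, quantile and robust fits, the ceiling value, replicate blocks, the populations in the fit and leaving out each replicate.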

Additional observations from a re-analysis of the deposited data

Results flagged for a closer look

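Changes of the CD43 difference between successive days were tested directly, as the interaction of CD43 and day in the limma fit, and 20 were called among the 10 genes. From day 6 to day 9 the log2 difference widened by 5.23 for MPO, 3.05 for AZU1, 9.52 for PRTN3, 3.56 for BPI and 5.77 for SRGN (5 of 10 genes, against 3.21% of all genes tested). MPO was at 0 in all day 6 CD43- samples and BPI in all day 6 samples, so that these fitted values depend on the pseudocount and are no bound. From day 9 to day 12 it widened by 7.64 for ELANE, 3.03 for AZU1, 3.45 for CTSG, 10.54 for DEFA3, 7.53 for DEFA4 and 6.08 for BPI (6 of 10, against 4.61%). ELANE, DEFA3 and BPI were at 0 in all day 9 CD43- samples. The CTSG call of this step was lost under 8 of 24 other settings (adjusted p up to 0.162).

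From day 12 to day 16 the difference was called smaller for 9 of 10 genes, against 2.17% of all genes. Sorting was on CD43 alone on day 12 and on CD43 and CD45 on day 16, so day and sorting cannot be told apart here. The changes were -4.79 for MPO, -4.50 for ELANE, -2.60 for AZU1, -6.27 for PRTN3, -5.20 for CTSG, -5.21 for LYZ, -4.37 for DEFA3, -4.49 for DEFA4 and -4.16 for BPI. MPO and LYZ were at the table's highest value in all CD43+ samples of both days, so that their values are the change in CD43- cells with its sign turned, and LYZ had no other called change. SRGN had -3.68 (adjusted p = 0.0571). None of the 10 genes was called between day 12 and day 16 in CD43+ cells, and all 10 were called higher in CD43- cells. With only the 4 populations compared in the fit, the change was called for ELANE alone (adjusted p = 0.025).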

How the results depend on the processing

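Calls on days 9, 12 and 16 between CD43+ and CD43- cells and within CD43+ cells stayed within 1.5 times the reported counts under every other setting tried. Leaving out 1 replicate at a time gave 3 to 3, 8 to 9, 10 to 10 and 9 to 10 genes for the CD43 comparison on days 6, 9, 12 and 16, and 3 to 4, 6 to 8, 9 to 9 and 0 to 0 for CD43+ cells from day 4 to 6, 6 to 9, 9 to 12 and 12 to 16. For CD43- cells the ranges were 0 to 2, 1 to 1, 1 to 9 and 9 to 10 in the same order, 0 to 2 from day 0 to 2, 0 to 1 from day 2 to 4, and 4 to 6, 5 to 7 and 7 to 10 for the 3 changes of the CD43 difference. A pseudocount of 10 left 1 call on day 6, 2 in CD43+ cells and 0 in CD43- cells from day 4 to 6, 0 in CD43- cells from day 6 to 9 and 0 from day 0 to 2. A pseudocount of 0.1 gave 4 in CD43- cells from day 4 to 6 and 2 each from day 0 to 2 and 2 to 4. A fold threshold of 2 gave 2 and 1 for those early steps. With only the populations compared in the fit there were 1 from day 2 to 4, 1, 0 and 3 in CD43- cells from day 4 to 6, 9 to 12 and 12 to 16, and 8 and 1 for the changes from day 6 to 9 and 12 to 16. The replicate block within those populations gave 1 from day 2 to 4, 1, 0, 0 and 1 in CD43- cells for the 4 steps from day 4, and 8 and 1 for the 2 changes. The replicate block over all samples moved no count by over 1.5 times. From day 0 to 2 the count was 0 without day 0 replicate 1 or 2 and 2 without day 0 replicate 3 or day 2 replicate 1, and from day 2 to 4 it was 1 without day 2 replicate 1 or day 4 replicate 2.

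Directions turned only for uncalled values. At a pseudocount of 0.1 CTSG in CD43- cells from day 9 to 12 was -0.12 and the PRTN3 change from day 9 to 12 was -1.05, and at 10 LYZ from day 2 to 4 was 0.16. Median-of-ratios scaling gave DEFA3 0.0086 from day 12 to 16. Over the fits without 1 replicate, the values ran from -0.74 to 1.11 for LYZ from day 2 to 4, from -0.53 to 0.33 for PRTN3 and -0.85 to 0.36 for CTSG in CD43- cells from day 4 to 6, from -0.80 to 0.36 for CTSG from day 6 to 9 and -0.86 to 1.26 from day 9 to 12, from -0.33 to 0.53 for PRTN3 on day 6, from -0.55 to 0.66 for DEFA3 in CD43+ cells from day 12 to 16, and, for changes of the CD43 difference from day 9 to 12, from -2.13 to 2.97 for PRTN3, -0.70 to 2.79 for SRGN and -3.12 to 0.92 for MPO. The causes were not tested. Spearman's rho in place of Pearson's r shared 3 of the 10 most similar genes.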

Other observations

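By Pearson correlation over the 12 population means, eosinophil granule genes were among the genes closest to the azurophil genes. By Spearman's rho only 3 of the 10 closest genes were shared. PRG2, the eosinophil major basic protein, was at 146, 71 and 58 in day 6 CD43+ cells, at 1378, 3460 and 989 on day 9 and at 20431, 48061 and 48061 on day 12. EPX, eosinophil peroxidase, was at 32, 148 and 34 in day 9 CD43+ cells and at 3172, 5292 and 4269 on day 12, with day 16 values of 10397, 6121 and 10397. In day 16 CD43- cells PRG2 was at 765, 3658 and 1674 and EPX at 102, 521 and 318, the same replicate order as the 10 azurophil genes. All 8 megakaryocyte markers had this order too.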
